A study of Arabidopsis thaliana with 3 samples.

Results

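The genes described here are the WRKY transcription factors of *Arabidopsis thaliana*, chosen as the rows of the deposited expression table whose annotation holds the word WRKY. They are 72 of the 33602 genes in the table. Reads came from 3 libraries, and 51 of the 72 members reached at least 10 reads in at least 1 of them and were tested together with all other such genes, 18802 in all. Of the other members, 12 had between 1 and 9 reads in their highest library and 9 had 0 reads in every library.

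RNA was sequenced from aerial parts of unstressed plants 4 weeks old, grown at 22 °C with 16 h light and 8 h dark. The tested plants were 2 transgenic lines in the Col-0 background, OE line #3 and OE line #6, that carry the tomato heat stress transcription factor gene SlHsfA3 under the 35S promoter, which drives expression in most tissues at all times. The reference was Col-0, the wild type without the transgene. Each genotype gave 1 library from a pool of 20 plants, so Col-0 has no replicate, each line is a single transgenic line, and the question asked is whether constant expression of SlHsfA3 goes with other levels of WRKY mRNA in the shoot.

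WRKY proteins are a large plant family of DNA-binding regulators. They carry a WRKY domain, named after the start of its conserved heptapeptide WRKYGQK and followed by a zinc finger, and they bind the W box, TTGACC or TTGACT, in the promoters of their targets. Group I members have a pair of domains as a rule, group II members have 1 domain and are split into IIa to IIe, and group III members have 1 domain with a C2HC finger in place of the C2H2 finger of the others. In *Arabidopsis* leaves the family is best known for defense, for signaling by salicylate and jasmonate, and for leaf senescence, and several members act in heat tolerance, phosphate supply, trichomes and stem development. Many WRKY genes are themselves bound by WRKY proteins and respond within minutes to pathogens, wounding or touch.

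In the coding sequences of the TAIR10.1 annotation, 11 members encode the exact heptapeptide at 2 places and 53 at 1 place. WRKY10 is the 1 member placed in group I that holds it once. A further 3 members, WRKY50, WRKY51 and WRKY59, encode a variant with lysine in place of glutamine as the sixth residue. A C2H2 finger follows every heptapeptide of 55 members and a C2HC finger follows that of 12. The other 5 members hold neither form, although the table annotates them as WRKY genes, and for AT5G35738 among them no coding sequence is annotated. Of these 5, AT4G31805 was the only one with enough reads to be tested. The 21 bases that code for the heptapeptide are shown for WRKY70, the highest member, for both domains of WRKY33, the second highest, for the closely related WRKY18, WRKY40 and WRKY60, and for both tested members with the variant. Capitals mark the sixth codon, CAA or CAG for glutamine and AAG for lysine.
WRKY70: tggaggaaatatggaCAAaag
WRKY33, first domain: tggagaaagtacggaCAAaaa
WRKY33, second domain: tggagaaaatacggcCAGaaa
WRKY18: tggaggaaatacggaCAAaag
WRKY40: tggaggaaatatggaCAGaaa
WRKY60: tggaggaaatacgggCAAaag
WRKY50: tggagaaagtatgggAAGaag
WRKY51: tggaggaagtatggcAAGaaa

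No member passed the threshold of an adjusted p under 0.05 in edgeR's quasi-likelihood test of both OE lines against Col-0, and 0 members passed it in DESeq2. DESeq2 gave no adjusted p for some members with few reads, among them WRKY13 and WRKY61, so these could not pass there. Over all genes tested the share past that threshold was 0.425% in edgeR, and no such share was taken for DESeq2. With a share that low, a count of 0 among the 51 members says little about the family. The smallest adjusted p of a member was 0.564 in edgeR. At an unadjusted p under 0.05 edgeR listed 2 of the 51, WRKY50 and WRKY48, which is 3.92% of the members against 7.38% of all genes, and DESeq2 listed 0. Most members lay close to 0. The log2 fold change of the OE lines over Col-0 had a median of -0.03 over the members, with quartiles of -0.26 and 0.13, beside a median of 0.01 and quartiles of -0.18 and 0.21 over all genes tested.

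**Figure D1:**
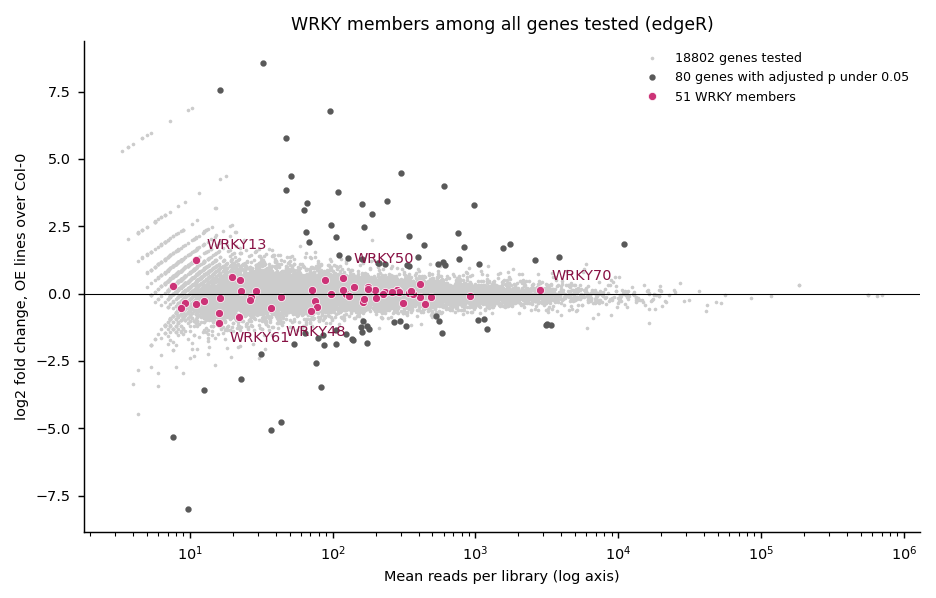
Mean reads per library (horizontal, log axis) against the edgeR log2 fold change of the OE lines over Col-0 (vertical) for the 18802 genes tested (light gray), the 80 genes with an adjusted p under 0.05 (dark gray) and the 51 WRKY members (pink). The members lie between -1.07 and 1.26, and none is among the dark points.

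WRKY70 had by far the highest level of the family in all 3 libraries. Its level was 239 RPKM in line #3 and 248 RPKM in line #6, against 224 RPKM in Col-0, where RPKM is the read count scaled for gene model length and, by TMM, for library size. This 1 gene made up 30.8% and 31.1% of the summed RPKM of the tested members in lines #3 and #6, against 28.9% in Col-0. WRKY70 stands between salicylate and jasmonate signaling and, with WRKY54, holds back leaf senescence. The second member was WRKY33, the regulator of camalexin synthesis, with 46.1 and 42.7 RPKM in lines #3 and #6, against 46.7 RPKM in Col-0. The median member stood far lower, at 8.95 and 9.44 RPKM in the lines, against 8.83 RPKM in Col-0. At least 10 RPKM were reached by 24 and 25 members in lines #3 and #6, against 23 members in Col-0.

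The remaining members had few or no reads in any library. The 9 members with 0 reads in every library were WRKY10, WRKY34, WRKY43, WRKY56, WRKY64, WRKY66, WRKY68, AT3G56390 and AT5G46310, and a count of 0 allows up to 3 reads in a library. WRKY34 is known from pollen and WRKY10, the MINISEED3 gene, from the endosperm of young seeds. Among the 12 with few reads were WRKY29, a gene of flagellin signaling, with 2 and 3 reads in lines #3 and #6, against 3 in Col-0, and WRKY42, a repressor of the phosphate exporter gene PHO1, with 3 and 7 reads, against 1. No ratio is given for these 21 members, since a difference was not detectable at this depth.

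**Figure D2:**
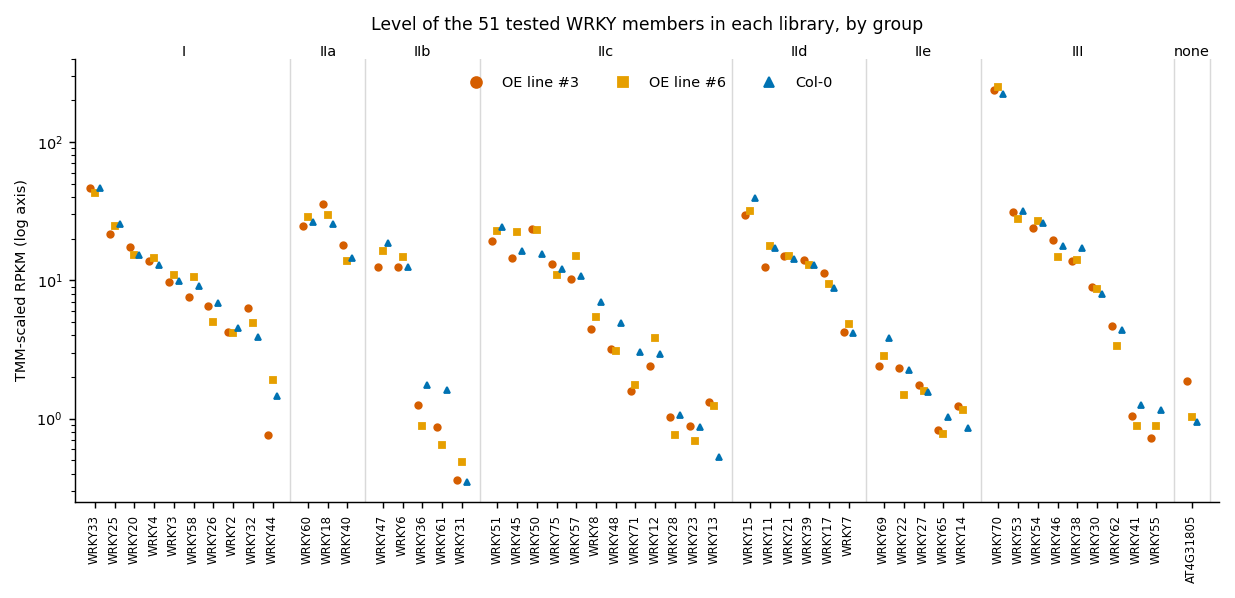
TMM-scaled RPKM (vertical, log axis) of the 51 tested members in OE line #3 (circles), OE line #6 (squares) and Col-0 (triangles), grouped by WRKY group and ordered by the level in Col-0. WRKY70 stands at 239, 248 and 224 RPKM, above all other members, and the symbols of most members lie close together.

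Each line was then set against Col-0 by itself. With 1 library on each side there is no test, and each log2 ratio carries an exact 95% interval that covers counting error only. The lines share that Col-0 library as denominator, so a low or high count in it moves both ratios. In line #3 the ratio of 1 member, WRKY13, was at least 2-fold, which is 1.96% of the members against 5.92% of all genes. Intervals lay above 1 for 7 members, or 13.7%, against 14.3% of all genes, and below 1 for 8 members, or 15.7%, against 16.3%. In line #6 WRKY13 and WRKY61 were past 2-fold, or 3.92% of the members against 4.43% of all genes. Intervals there lay above 1 for 5 members, or 9.8%, against 11.9% of all genes, and below 1 for 4 members, or 7.84%, against 13% of all genes. These shares were near or under the background in each comparison. The median log2 ratio of the members was -0.03 in line #3 and -0.01 in line #6, beside 0.00 over all genes in each.

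**Figure D3:**
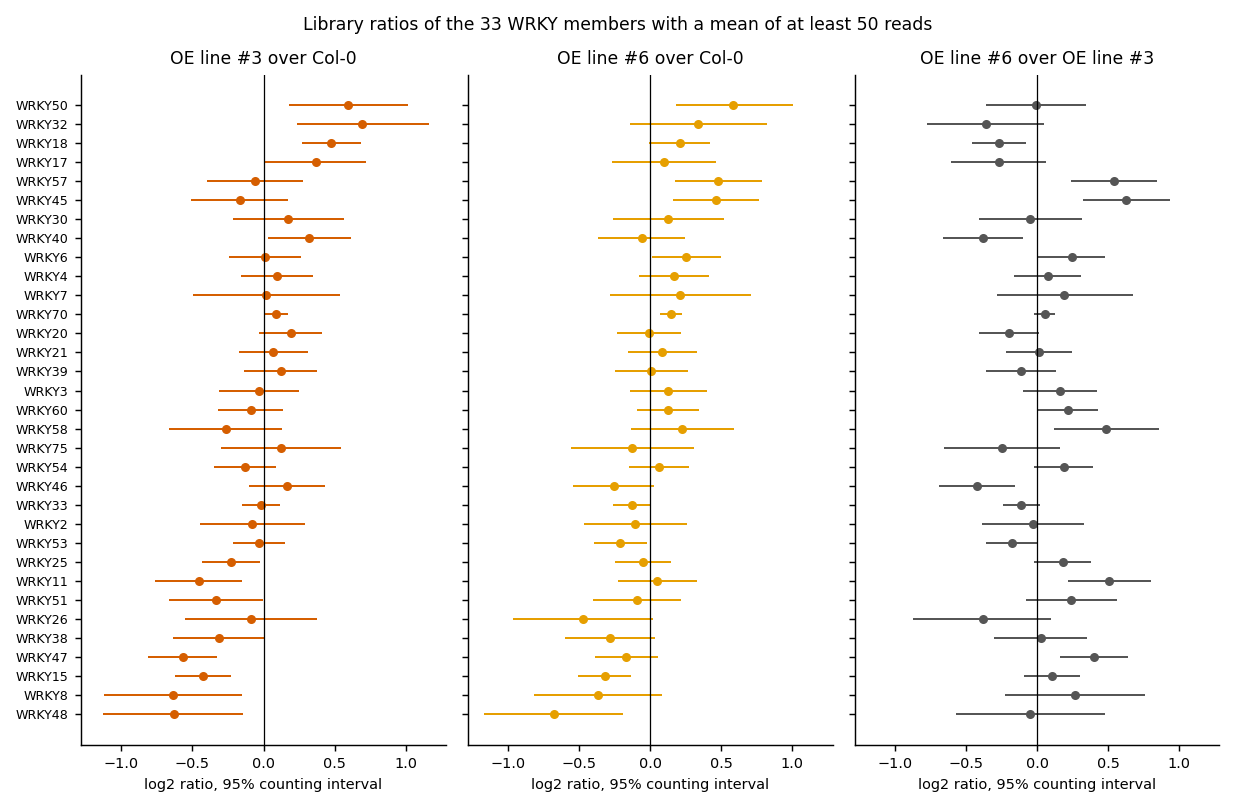
Log2 ratios (horizontal) of OE line #3 over Col-0, OE line #6 over Col-0 and OE line #6 over OE line #3 for the 33 members with a mean of at least 50 reads, with 95% counting intervals as bars. WRKY50 lies at the top at 0.59 in both lines and WRKY48 at the bottom at -0.63 and -0.68, and their ratios between the lines are close to 0.

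WRKY50 and WRKY48, both of group IIc, had the smallest p of the family. WRKY50 acts with WRKY51 where salicylate represses jasmonate responses. It had 133 reads in line #3 and 141 in line #6, against 79 in Col-0, or 12.2 and 12.1 CPM, the count scaled for library size alone, in the lines, against 8.08 CPM in Col-0. The lines were close together, both stood above Col-0, and the log2 fold change was 0.59 ± 0.24 with its SE and an adjusted p of 0.564 in edgeR. WRKY48, a negative regulator of basal defense, had 62 and 64 reads in lines #3 and #6, against 86 in Col-0. Its log2 fold change was -0.65 ± 0.27 (adjusted p = 0.58), and both lines stood below Col-0. WRKY51, which shares the variant heptapeptide with WRKY50, had 147 and 185 reads in lines #3 and #6, against 166 in Col-0, with a log2 fold change of -0.21 ± 0.21.

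The 300 bases before the annotated start of each gene were searched on both strands for the W box, TTGACC or TTGACT, its core TTGAC, which lies within it, and the pair of heat shock units GAANNTTC, which reads the same on both strands. A W box was found before 29 of the 72 members, or 40.3%, against 32.3% of 27443 protein-coding genes, and the core before 42 members, or 58.3%, against 50.4%. GAANNTTC was found before 11 members, or 15.3%, against 11.5% of those genes. Among tested members, the 21 with a W box had a median log2 fold change of -0.12 and a range of -0.71 to 0.59, beside a median of 0.01 and a range of -1.07 to 1.26 in those without. The 9 tested members with GAANNTTC had a median of -0.13 and a range of -0.85 to 0.59, beside 0.00 in those without, and their median log2 ratios to Col-0 were 0.01 in line #3 and 0.05 in line #6. The sign of that median thus differed between the fit of both lines and each line alone. A longer run of 3 heat shock units, also searched for, was found before 0 of the 72 members, against 0.485% of the 27443 protein-coding genes. At so low a share a count of 0 among 72 members says little. Binding of SlHsfA3 before any member was not tested. The windows are shown for the pair with the smallest p, in the direction of the gene and from TAIR10.1. In that of WRKY50, at chr5:9148392-9148691 on the minus strand, capitals mark a W box and, 1 base after it, GAANNTTC.
WRKY50: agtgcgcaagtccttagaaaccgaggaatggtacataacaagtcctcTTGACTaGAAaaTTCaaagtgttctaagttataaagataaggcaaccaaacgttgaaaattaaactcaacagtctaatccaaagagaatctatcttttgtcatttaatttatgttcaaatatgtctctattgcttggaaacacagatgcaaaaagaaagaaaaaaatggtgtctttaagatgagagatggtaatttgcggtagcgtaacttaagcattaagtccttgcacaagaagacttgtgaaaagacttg
In that of WRKY48, at chr5:20090348-20090647 on the plus strand, capitals mark 1 W box, read here on its other strand.
WRKY48: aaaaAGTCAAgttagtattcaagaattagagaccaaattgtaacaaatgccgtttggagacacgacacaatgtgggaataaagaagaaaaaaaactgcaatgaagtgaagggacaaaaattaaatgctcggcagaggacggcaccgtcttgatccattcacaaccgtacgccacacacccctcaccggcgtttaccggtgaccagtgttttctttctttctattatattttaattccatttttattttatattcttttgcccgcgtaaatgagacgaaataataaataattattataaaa

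Members known from heat tolerance showed small differences. Reads are given here as counted, while fold changes take account of the larger effective size of both OE libraries. WRKY25, WRKY26 and WRKY33 of group I act together in thermotolerance, and WRKY39 of group IId acts in it as well. WRKY25 had 380 and 459 reads in lines #3 and #6, against 399 in Col-0, with a log2 fold change of -0.14 ± 0.18. WRKY26 had 82 and 67 reads in the lines, against 78 in Col-0, with -0.27 ± 0.28. WRKY33 gave 958 and 946 reads, against 869 in Col-0, with -0.07 ± 0.18, and WRKY39 gave 279 and 275, against 230, with 0.06 ± 0.19. Each of these differences was smaller than its SE, and the adjusted p ranged from 0.922 for WRKY26 to 0.98 for WRKY39.

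The group IIa members WRKY18, WRKY40 and WRKY60 bind each other and repress defense genes. WRKY18 had 486 reads in line #3 and 430 in line #6, against 313 in Col-0, which put its log2 fold change at 0.35 ± 0.19 with an adjusted p of 0.78. WRKY40 had 236 and 193 reads in the lines, against 169 in Col-0, and its log2 ratio to Col-0 was 0.32 in line #3 and -0.06 in line #6. WRKY40 shares 465 bases at 96.3% identity with AT3G32090, which had 0, 0 and 2 reads in lines #3 and #6 and Col-0, so reads of this pair may have been split in counting. WRKY60 had 325 and 402 reads in lines #3 and #6, against 310 in Col-0, with 0.02 ± 0.19. For WRKY18 and WRKY40 line #3 was the highest library, for WRKY60 line #6.

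Group III holds the salicylate and senescence regulators, and its 9 tested members had a median log2 fold change of -0.12. WRKY70 had 2896 and 3206 reads in lines #3 and #6, against 2436 in Col-0, with 0.12 ± 0.20. Its many reads made the counting intervals narrow, 0.01 to 0.17 in line #3 and 0.07 to 0.22 in line #6 on the log2 scale, while its adjusted p was 0.964. WRKY54 had 346 and 420 reads in the lines, against 339 in Col-0, with -0.03 ± 0.19. WRKY53, which promotes leaf senescence, had 515 and 485 reads, against 472 in Col-0, with -0.12 ± 0.18. For WRKY46, which acts with both of the salicylate regulators WRKY54 and WRKY70, the lines fell on either side of Col-0, with 19.7 RPKM in line #3 and 14.7 RPKM in line #6, against 17.6 RPKM in Col-0. WRKY30 had 126 and 130 reads, against 100, with 0.15 ± 0.23. WRKY38, which represses basal defense together with WRKY62, had 154 and 167 reads, against 171, with -0.30 ± 0.20, and WRKY62 had 50 and 38 reads, against 42. WRKY41 and WRKY55 had at most 12 reads in any library.

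For the negative regulators of basal resistance in group IId, intervals against Col-0 lay off 1 in line #3 only, below for WRKY11 and above for WRKY17. WRKY11 had 161 reads in line #3 and 244 in line #6, against 198 in Col-0, and WRKY17 had 164 and 145, against 114. Their log2 ratios of line #3 to Col-0 were -0.46 and 0.37, and those of line #6 were 0.05 and 0.10. For WRKY17 the interval of line #6 over line #3, -0.60 to 0.06, held 0. WRKY15, a gene known from growth and salt and oxidative stress, had the third highest level in Col-0 at 39.6 RPKM, against 29.5 and 31.7 RPKM in lines #3 and #6. Its intervals lay below 1 in each line, and its log2 fold change was -0.37 ± 0.18 (adjusted p = 0.693). WRKY7 and WRKY21 had log2 fold changes of 0.12 ± 0.28 and 0.08 ± 0.19.

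Among genes of phosphate supply and senescence, WRKY6, a repressor of PHO1, had 271 and 342 reads in lines #3 and #6, against 241 in Col-0, with a log2 fold change of 0.14 ± 0.20. WRKY45, an activator of the phosphate transporter gene PHT1;1, had 145 and 239 reads, against 146, with 0.18 ± 0.25. WRKY75, known from phosphate starvation and senescence, had 108 and 97 reads, against 89, with 0.00 ± 0.24. WRKY45 was highest in line #6, with line #3 and Col-0 close together. WRKY57, known from drought tolerance, was also highest in line #6, with 153 and 237 reads in lines #3 and #6, against 143 in Col-0.

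The members furthest from Col-0 were mostly those with few reads. WRKY13, which promotes stem sclerenchyma, had 14 reads in each line, against 5 in Col-0, and its log2 fold change of 1.26 ± 0.80 had an adjusted p of 0.817. WRKY61 had 14 and 11 reads in lines #3 and #6, against 23 in Col-0, with -1.07 ± 0.56 (adjusted p = 0.74), and WRKY71, a gene of shoot branching and flowering, had 17 and 20 reads, against 29, with -0.85 ± 0.47. To either side of the ratio of line #3 to Col-0, the counting interval reached a median of 1.03 on the log2 scale for the 18 members with a mean under 50 reads and 0.292 for the 33 others. Among those 33, WRKY32 had 112 and 93 reads, against 62, with 0.52 ± 0.28, and WRKY8, a gene of virus defense and salt response, had 64 and 82, against 89, with -0.49 ± 0.27. WRKY47 had 249 and 350 reads in lines #3 and #6, against 331 in Col-0, with -0.35 ± 0.20. AT4G31805, which lacks the heptapeptide, had 29 and 17 reads, against 13, and it overlaps the neighboring gene on the other strand by 310 bases.

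Split by family group, the medians were as follows, and no group was tested as a set. Group I (10 members) had a median log2 fold change of -0.03, group IIa (3) of 0.14, group IIb (5) of -0.35, group IIc (12) of -0.08, group IId (6) of 0.07 and group IIe (5) of -0.25. Groups IIb and IIe, with the lowest medians, were those with the fewest reads, a median of 23 and 20 reads in Col-0.

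**Figure D4:**
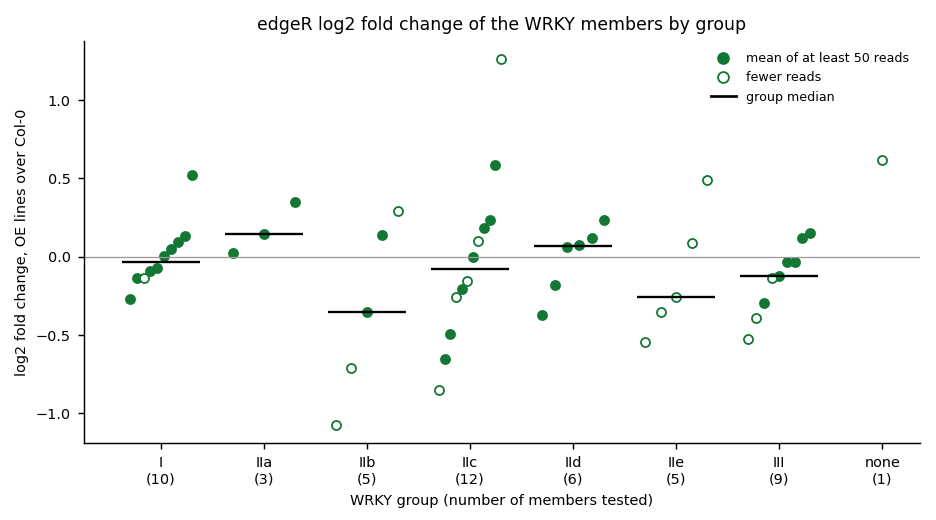
Log2 fold change of the OE lines over Col-0 in edgeR (vertical) of each tested member by WRKY group (horizontal), with filled points for members with a mean of at least 50 reads, open points for fewer reads and a line at the group median. Values past 0.7 in size belong to open points, and group medians run from -0.35 in IIb to 0.14 in IIa.

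Line #6 was last set against line #3, as a measure of how far 2 lines with the same construct lie from each other. WRKY44 was past 2-fold, 1.96% of the members against 4.15% of all genes. Intervals lay above 1 for 8 members, or 15.7%, against 14.4% of all genes, and below 1 for 3 members, or 5.88%, against 12.2%. WRKY44 is the trichome and seed coat gene TTG2 and had 40 reads in line #6 and 15 in line #3, with 26 in Col-0, a log2 ratio between the lines of 1.32 with an interval of 0.44 to 2.29. Among members with a mean of at least 50 reads, WRKY45 was next with 0.63 (0.33 to 0.94), WRKY57 with 0.54 (0.24 to 0.84) and WRKY11 with 0.51 (0.21 to 0.80). In the other direction lay WRKY46 with -0.42 (-0.69 to -0.16), WRKY40 with -0.38 (-0.66 to -0.10) and WRKY18 with -0.27 (-0.46 to -0.08). WRKY12, which represses secondary walls in pith, had 39 and 23 reads in lines #6 and #3, with 25 in Col-0, and a ratio of 0.67 whose interval of -0.11 to 1.48 held 0. Of the 8 members named so far in this comparison, WRKY18 was higher than Col-0 in each line. For the others the lines fell on either side of Col-0, as they did for WRKY58, with 0.49 (0.12 to 0.86). WRKY47, with 0.40 (0.16 to 0.64), was below Col-0 in each line. So was WRKY26, with -0.38 and an interval of -0.87 to 0.10 that held 0.

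Genes that work with WRKY proteins were tested in the same fit, and at the share of 0.425% over all genes no call is to be looked for in lists of this size, so the counts of 0 say little. Of 16 tested genes for partners and kinases of the family, such as MPK3, MPK4 and MPK6 and the VQ proteins MKS1 and SIB1, 0 passed the adjusted threshold in edgeR in either direction, and the median log2 fold change was -0.12. The smallest adjusted p was 0.734 for MKK5, with 345 and 381 reads in lines #3 and #6, against 401 in Col-0. Of 15 tested genes known as WRKY targets, 0 passed, with a median of -0.03. The camalexin genes CYP71A13 and PAD3, which WRKY33 activates, had log2 fold changes of -0.59 ± 0.18 (adjusted p = 0.296) and -0.52 ± 0.18 (adjusted p = 0.428). PDF1.2, a jasmonate-responsive defensin gene with near-identical copies, had 0.73 ± 0.21 (adjusted p = 0.272). PR1, a salicylate marker, had 0.17 ± 0.26, with log2 ratios to Col-0 of -0.21 in line #3 and 0.46 in line #6. CBP60G and ICS1 were below Col-0 in each line, with log2 fold changes of -0.54 ± 0.18 and -0.41 ± 0.20. Of the 15 targets, 7 had a log2 fold change above 0 and 8 below. PHT1;1, the target of WRKY45 and also one of a family of close copies, had 21 and 20 reads in lines #3 and #6, against 41 in Col-0. Its log2 fold change was -1.20 ± 0.42 (adjusted p = 0.445 in edgeR). Of 12 tested genes of the rapid response to wounding and touch, which many WRKY genes share, 0 passed, with a median of -0.09, and TCH4 had the smallest adjusted p, 0.295.

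The libraries held 11556077 reads in line #3 and 10786332 in line #6, against 9968154 in Col-0, of which 0.0961% and 0.112%, against 0.1005%, fell in the 72 members. Ribosomal RNA took 32.5% and 20.9% of reads in lines #3 and #6, against 26.6% in Col-0, and genes of the organelles took 19.4% and 14.3%, against 16.1%. Of the other reads the members made up 0.1485% and 0.1461%, against 0.1414%, so on that base both lines stood above Col-0. In TMM-scaled CPM the 51 tested members summed to 1014.7 and 1038.4 in lines #3 and #6, against 1020.8 in Col-0. On that scale line #3 stood below Col-0. SlHsfA3 is a tomato gene and its own transcript was not analysed here, so the labels were read against HSP17.6A, a small heat shock protein gene that Hsfs activate. It had 792 and 967 reads in lines #3 and #6, against 48 in Col-0 (adjusted p = 2.31e-06 in edgeR). That is the smallest adjusted p of all genes tested, so this gene is no independent check of the labels. All 5 leaf mesophyll markers were high and the 5 root markers had at most 1 read in a library. The 5 floral organ markers summed to 20.7 and 5.33 CPM in lines #3 and #6, against 15.5 CPM in Col-0, and the 5 tapetum and pollen coat markers to 83.4 and 2.23 CPM, against 22.6 CPM. GRP17 alone gave 46.3 of the 83.4 CPM in line #3, while MS2 was below Col-0 in each line, with 6 and 4 reads, against 22. All 10 floral, tapetum and pollen coat markers were lower in line #6 than in line #3. Their part in the differences of WRKY members between the lines was not tested. In pooled shoots, fewer cells of a type and less RNA per cell cannot be told apart. Reads from 9 tested members, among them WRKY33, WRKY40, WRKY41, WRKY53 and WRKY69, may include reads of an overlapping gene, as the library protocol names no step that keeps the strand. A further 5 WRKY genes whose annotation lacks the word, WRKY1, WRKY16, WRKY19, WRKY52 and WRKY63, lay outside the rule. Of these, 0 passed the adjusted threshold in edgeR, which 0.425% of all genes passed, so that count says little.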

How the data were processed

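RNA was sequenced on an Illumina HiSeq from 3 libraries, OE line #3, OE line #6 and Col-0. The authors processed the reads with CASAVA 1.7 and the build TAIR10 and deposited counts of reads per gene, not normalized. For the aligner settings and for reads with several matches, nothing is given in the sources used here. Cells given as NA were read as 0. The table's columns of ratios, RPKM and tests between lines and Col-0 are the authors' own comparisons and were not used, nor were their pathway lists.

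The OE lines were tested against Col-0 by the quasi-likelihood method of edgeR 4.0.16 (R 4.3.3), with TMM, estimateDisp, glmQLFit and glmQLFTest at their defaults. Genes under 10 reads in every library were left out, and p-values were adjusted after Benjamini and Hochberg over the remaining 18802. The fit has 1 residual degree of freedom, from the spread between the 2 OE lines, beside 13.6 prior degrees of freedom drawn from all genes. Each p-value and SE thus rests mostly on a spread estimated over all genes and little on that gene's own lines. Col-0 is taken to vary like the lines. An SE was derived as the size of the unshrunk log2 fold change over the root of its F statistic. RPKM, CPM and library ratios used TMM-scaled library sizes, and the ratios carry exact 95% conditional binomial intervals. Sequences and names came from RefSeq's TAIR10.1 annotation and genome, where all 72 members had an entry. The tests were tried on simulated data. Named genes were the 6 highest and 6 lowest fold changes and the 8 members furthest apart between the lines among members with a mean of at least 50 reads, the 8 highest levels in Col-0, and members known from other work. Further members in the text were named after their values were seen. Members and lists were chosen with earlier results of these data known. Alternatives covered scaling (total reads, relative log expression, without ribosomal RNA and organelle genes), the read filter, DESeq2 1.42.0 and each line left out. Computations used Python 3.11.15, pandas 2.3.3, SciPy 1.17.1 and matplotlib 3.10.9.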

Additional observations from a re-analysis of the deposited data

How the results depend on the processing

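The count of members past an adjusted p under 0.05 was also 0 under every scaling, every read filter and DESeq2 1.42.0. No share of calls over all genes was taken under these alternatives, so their counts stand without a background. In DESeq2 some members with few reads had no adjusted p, and the others had one of 0.99997, so the 0 there says little. Over the 302 tested values of the 51 members under these alternatives, which keep all libraries, 2 changed sign, WRKY54 to 0.0175 and WRKY46 to 0.0006 with total reads in place of TMM, both from -0.03. The count at an unadjusted p under 0.05 was 2 in edgeR, 1 with total reads, 4 with at least 10 reads in every library and 0 in DESeq2. Members past 2-fold in line #3 over Col-0 numbered 1, and 2 with total reads or without ribosomal RNA and organelle genes, and 6 with at least 1 read in at least 1 library. In line #6 over Col-0 they numbered 2, and 1 with at least 10 reads in every library and 5 with at least 1 read. In line #6 over line #3 they numbered 1, and 7 with at least 1 read, where members of a few reads enter. Total reads moved the median log2 ratio over all genes to -0.05, 0.14 and 0.19 in line #3 over Col-0, line #6 over Col-0 and line #6 over line #3, and the medians of the members to -0.0875, 0.1279 and 0.1645, so that the last 2 turned positive with the shift of all genes. With at least 1 read, the median of line #6 over line #3 was 0.0053. Leaving out a line changed more signs. Without line #3, 6 of the 51 members took the other sign (WRKY11, WRKY20, WRKY40, WRKY44, WRKY54 and WRKY75), and without line #6, 10 did (WRKY3, WRKY12, WRKY22, WRKY23, WRKY45, WRKY46, WRKY57, WRKY58, WRKY60 and WRKY62). WRKY44, for example, was 0.37 without line #3 and -0.95 without line #6, and WRKY26 kept its sign at -0.47 and -0.09. None of these members was called, a single line against Col-0 has no test, and the values over all 51 ran from -1.3148 to 1.3268. No paired analysis was possible because Col-0 has a single library. Depth limits the 18 members with a mean under 50 reads, whose counting intervals reach about 1 on the log2 scale to either side, and the single Col-0 library limits all of them.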

Other observations

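The 5 WRKY genes whose annotation lacks the word were expressed at levels within the range of the tested members. WRKY1, a group I gene, had 20.9 and 23.2 RPKM in lines #3 and #6, against 21.3 RPKM in Col-0. WRKY16, WRKY19 and WRKY52, whose proteins join a WRKY domain to a disease resistance receptor, had log2 fold changes of 0.20 ± 0.19, 0.24 ± 0.19 and 0.03 ± 0.21 over Col-0. WRKY63, of group III, had 31 and 51 reads in lines #3 and #6, against 27 in Col-0, with 0.39 ± 0.42.

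Markers of leaf senescence, a process that WRKY53 promotes and WRKY54 and WRKY70 delay, gave 0 calls among 5 genes at the adjusted threshold in edgeR, which 0.425% of all genes passed, so that count says little. SAG12, a protease gene of late senescence, had 0 and 3 reads in lines #3 and #6, against 15 in Col-0 (adjusted p = 0.316). SAG29, a sugar transporter gene, had 28 and 100 reads, against 27, so that line #6 alone stood apart. For SEN1 line #3 was the highest library, with 49 and 30 reads, against 27, and log2 ratios to Col-0 of 0.70 and -0.10. SAG13 had 2402 and 3209 reads, against 2076, and NYC1 had 587 and 702, against 498.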
